A study of Mus musculus with 42 samples.

Results

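SOX2 binding was compared directly between 2 mutants that respond to WNT signalling without 1 of its caudal effectors: cells lacking Cdx1, Cdx2 and Cdx4 (CdxKO) and cells lacking T, also called Brachyury (T/BraKO). The comparison rests on 6 SOX2 chromatin immunoprecipitation libraries of the 42 samples of the series, 3 per mutant. All 6 libraries carried the same experiment tag in their labels. The cells were mouse embryonic stem cell lines of HM1 origin (strain 129) that were differentiated with FGF and LGK974, a blocker of WNT secretion, and then exposed to CHIR99021 (CHIR), which activates WNT signalling inside the cell. The cells were collected at 72 h. Each genotype was carried by its own cell line, so line and genotype cannot be told apart, and the number of clones per line was not stated. Peak lists hold no expression values, so the identity of the cells was not checked with markers, and peaks at the deleted genes do not check the deletions: CdxKO lists held 4, 3 and 2 of their 20000 best peaks within 10000 bp of T, and T/BraKO lists held 2, 3 and 3. At Cdx2 the counts were 5, 6 and 5 against 3, 5 and 5, at Cdx1 they were 2, 2 and 1 against 2 in each list, and at Cdx4 no list held more than 1.

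SOX2 is an HMG-box transcription factor that maintains the pluripotent epiblast and neural progenitors, and it is known to bind DNA together with partner factors, POU5F1 in pluripotent cells among them. CDX proteins are homeodomain factors that assign posterior identity and act on the Hox clusters. T is a T-box factor of the primitive streak and of the mesoderm that forms from it. β-catenin and its DNA-binding partners, LEF1 among them, carry the WNT signal to target genes.

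A peak was an interval called by MACS in 1 library, with a fold enrichment over local background and a −log10 q. The lists differed in length. CdxKO lists held 163926, 86068 and 172423 peaks in replicates 1 to 3, and T/BraKO lists held 266820, 104221 and 26940. The group means of log10 peak number, 5.13 ± 0.168 and 4.96 ± 0.501 (SD, n = 3), did not differ beyond the spread between replicates (two-sided exact permutation test, p = 0.7, with 0.1 the smallest p that 3 against 3 allows). T/BraKO replicate 3 stood apart: its 20000 best peaks were 74.2% of its list and reached down to a −log10 q of 3.26, against 6.68 to 7.71 in the other 5 lists. Absence from its full list is therefore weaker evidence than absence from the other full lists. Presence among its 20000 best peaks is likewise weaker evidence than presence among those of the other lists. The total number of reads per library was not in the lists, so depth is unknown.

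Sequences at 3 of the leading separating regions, defined below as regions listed in all 3 libraries of 1 mutant and in none of the other, are shown first because the results turn on their content, and a region in Hoxa4 was added after its values were seen. Each is the plus strand of mm10 from 100 bases before to 100 after the best summit. In the T/BraKO regions capitals mark a CDX motif (CAATAAA or CCATAAA or TAATAAA or TCATAAA), a SOX motif (CCATTGT or CCTTTGT) or a TCF/LEF motif (CTTTGAA or CTTTGAT) on either strand. None of these, nor AGGTGTGA (T-box), ATGCAAAT (POU) or TTGTNATGC (SOX-POU), occurred in the CdxKO window, where capitals mark GTGTGAA, a string chosen after the regions were compared. The POU and SOX-POU motifs share 4 letters, and AGGTGTGA and GTGTGAA can overlap.
Rbfox3 intron, T/BraKO, chr11:118695260-118695460: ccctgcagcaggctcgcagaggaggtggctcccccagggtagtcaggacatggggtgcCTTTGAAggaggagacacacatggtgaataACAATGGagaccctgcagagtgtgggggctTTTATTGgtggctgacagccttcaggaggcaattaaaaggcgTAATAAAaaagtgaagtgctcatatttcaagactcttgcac
Irx1 upstream, T/BraKO, chr13:72210196-72210396: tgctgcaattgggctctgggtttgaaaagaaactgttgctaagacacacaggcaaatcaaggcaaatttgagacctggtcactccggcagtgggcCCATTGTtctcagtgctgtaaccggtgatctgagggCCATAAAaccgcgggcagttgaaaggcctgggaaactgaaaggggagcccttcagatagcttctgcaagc
Hoxa4 intron, T/BraKO, chr6:52190778-52190978: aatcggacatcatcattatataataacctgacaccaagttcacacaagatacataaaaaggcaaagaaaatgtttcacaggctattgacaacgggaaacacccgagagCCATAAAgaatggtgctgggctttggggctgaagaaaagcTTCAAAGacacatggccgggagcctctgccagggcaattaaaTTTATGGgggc
Appl1 intron, CdxKO, chr14:26956530-26956730: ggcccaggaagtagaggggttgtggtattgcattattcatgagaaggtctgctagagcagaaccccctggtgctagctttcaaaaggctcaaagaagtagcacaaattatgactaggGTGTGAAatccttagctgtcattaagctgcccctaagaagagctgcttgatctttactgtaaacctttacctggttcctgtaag

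Most strong SOX2 sites were common to both mutants or varied between replicates, and few separated the genotypes. The 20000 best peaks of the 6 lists merged into 70228 regions, of which 3561 were listed in all 6 libraries. Only 289 regions (0.412% of 70228) were in 3 of 3 CdxKO libraries and 0 of 3 T/BraKO libraries, and 262 (0.373%) showed the opposite pattern. They are called CdxKO-only and T/BraKO-only regions below, and these calls chose them, so the counts are a description without a test. A further 24969 regions were in 1 CdxKO library alone and 26690 in 1 T/BraKO library alone.

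Similarity between whole lists differed little by genotype. The mean Jaccard index, the share of regions common to 2 lists among those in either, was 0.241 within CdxKO, 0.215 within T/BraKO and 0.220 between the mutants. The excess of within over between was 0.00814, which was the highest of the 10 divisions of the 6 libraries (one-sided exact permutation test, p = 0.1, the smallest possible). Without CdxKO replicate 3 the excess was −0.00177, and over the full lists it was −0.00194.

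In the full lists, where every peak at the default threshold counted, 663386 regions were formed. Among them 1234 (0.186%) were CdxKO-only and 439 (0.0662%) T/BraKO-only, and the part of the short list of T/BraKO replicate 3 in this asymmetry was not tested. Many regions that separated the mutants among the 20000 best peaks were present at lower rank in the other mutant. Of the 289 CdxKO-only regions, 86 had no peak in any full T/BraKO list (0.122% of all regions), 89 had one in 1, 95 in 2 and 19 in all 3. Of the 262 T/BraKO-only regions, 76 had no peak in any full CdxKO list (0.108%), 83 had one in 1, 66 in 2 and 37 in all 3. Full lists of T/BraKO replicates 1 and 2 held 49.5% and 53.6% of the CdxKO-only regions and that of replicate 3 held 13.1%, while CdxKO replicates 1 to 3 held 41.2%, 39.3% and 43.9% of the T/BraKO-only regions. Without T/BraKO replicate 3 the numbers of CdxKO-only and T/BraKO-only regions among the best peaks were 555 and 582.

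The separating regions were of middling strength. The median fold enrichment of CdxKO-only regions was 8.27, 8.05 and 7.89 in the 3 CdxKO libraries, and that of T/BraKO-only regions was 8.37, 8.42 and 7.37 in the 3 T/BraKO libraries. Regions in all 6 lists had medians of 11.2 to 14.7. Most separating regions lay away from promoters, as did most of all 70228 regions. The summit was within 1000 bp of a start site of a protein-coding transcript in 15.6% of CdxKO-only regions (95% Wilson interval 11.8 to 20.2). The share was 8.40% in T/BraKO-only regions (5.61 to 12.4), 17.1% in regions of all 6 lists and 13.9% in all 70228 regions. The intervals here and below cover counting error over regions only, and regions are not replicates of a genotype.

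The T/BraKO-only regions, which SOX2 occupied in cells that still carry their Cdx genes, were rich in the CDX motif. A match no farther than 100 bp from the summit was found in 110 of 262 T/BraKO-only regions (42.0%, 36.2 to 48.0), in 22 of 289 CdxKO-only regions (7.61%, 5.08 to 11.3) and in 314 of 3561 regions of all 6 lists (8.82%, 7.93 to 9.79). All 70228 regions together had it in 13.5%. In the 76 T/BraKO-only regions absent from every full CdxKO list the share was 64.5% (53.3 to 74.3), and in the 86 CdxKO-only regions absent from every full T/BraKO list it was 4.65% (1.82 to 11.4). The number of strong peaks compared did not alter the order: among the 5000 best peaks the shares were 44.9% and 3.54%, and in the full lists 39.9% and 9.08%. Without T/BraKO replicate 3 they were 26.5% and 5.77%, over 582 and 555 regions, and the lowest T/BraKO-only share on leaving out any library was that value.

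**Figure D1:**
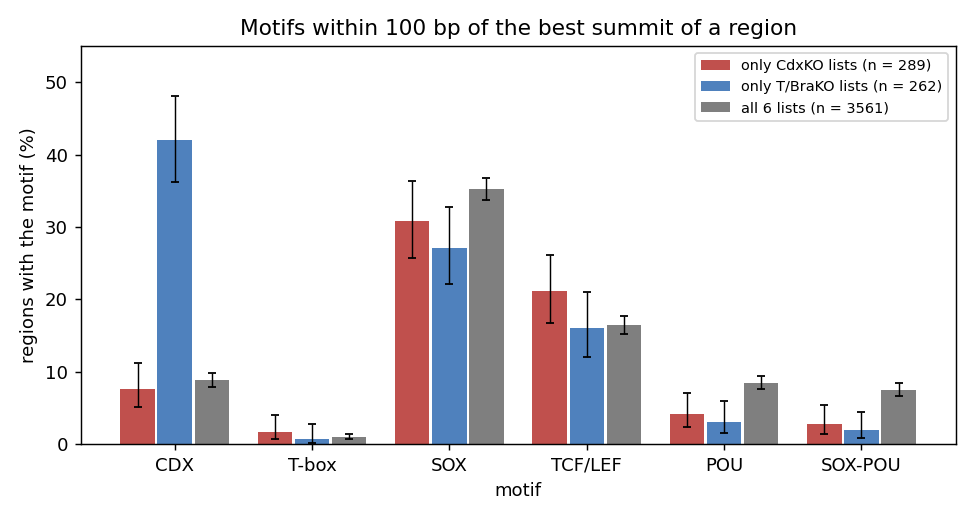
Percentage of SOX2 regions (vertical axis) with each of 6 motifs within 100 bp of the best summit, for CdxKO-only, T/BraKO-only and common regions, with 95% Wilson intervals as error bars. The CDX motif stands at 42.0% in T/BraKO-only regions against 7.61% and 8.82% in the other classes, and the SOX and POU motifs are most frequent in the regions of all 6 lists.

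Other motifs differed less between the separating classes. The SOX motif lay in 30.8% of CdxKO-only, 27.1% of T/BraKO-only and 35.2% of common regions, with overlapping intervals for the separating classes (25.8 to 36.3 and 22.1 to 32.8). Within the T/BraKO-only regions, 76 had a CDX motif without a SOX motif (29.0%) and 34 had both (13%). The composite SOX-POU motif, typical of SOX2 with POU5F1 in pluripotent cells, was in 2.77% of CdxKO-only and 1.91% of T/BraKO-only regions and in 7.5% of common regions, and the POU motif was in 4.15%, 3.05% and 8.51%. The TCF/LEF motif was in 21.1%, 16% and 16.5%. The T-box motif AGGTGTGA was rare in all classes, with 5 CdxKO-only regions (1.73%) and 2 T/BraKO-only regions (0.763%). Over all 70228 regions the shares were 19.2% for SOX, 2.13% for SOX-POU, 3.08% for POU, 11.5% for TCF/LEF and 1.02% for T-box.

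The same contrast was present in whole libraries, with no selection of regions. The CDX motif was found at 10.4%, 9.54% and 11.1% of the 20000 best summits of CdxKO replicates 1 to 3, and at 14%, 12% and 15.7% of those of T/BraKO. Every T/BraKO library lay above every CdxKO library. The means were 10.3 ± 0.781% and 13.9 ± 1.83% (SD, n = 3), a difference of −3.55 percentage points (two-sided exact permutation test, p = 0.1, the smallest possible, and adjusted p = 0.6 over 6 motifs). The same windows moved by 1000 bp had the motif at 16.2 ± 0.265% and 16.6 ± 0.452%, so the summits of both mutants carried it less often than their surroundings and those of CdxKO least often. The other 5 motifs overlapped between the mutants: for SOX the means were 24.8 ± 1.82% and 23.2 ± 2.74% (p = 0.6, adjusted p = 1), and for T-box 1.08 ± 0.104% and 0.925 ± 0.106% (p = 0.2, adjusted p = 0.6), by the same exact permutation test. Base composition at the summits, 49.4 ± 0.619% and 49.0 ± 1.05% GC, did not differ beyond the replicate spread (exact permutation test, p = 0.6), and neither did the promoter share, 16.5 ± 0.523% and 14.9 ± 2.19% (p = 0.3).

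The difference in CDX motif was largest in the best 10000 peaks. Among the best 1000 the shares were 7.8%, 8% and 7.7% in CdxKO and 13.3%, 10.8% and 14% in T/BraKO, a difference of −4.87 points. Between ranks 10000 and 20000 it was −2.51 points and beyond rank 20000 it was −0.614. T/BraKO replicate 3, whose list is shortest, had the highest share from rank 1 to 20000. T/BraKO replicates 1 and 2 also lay above all CdxKO libraries in each of the blocks up to rank 10000.

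**Figure D2:**
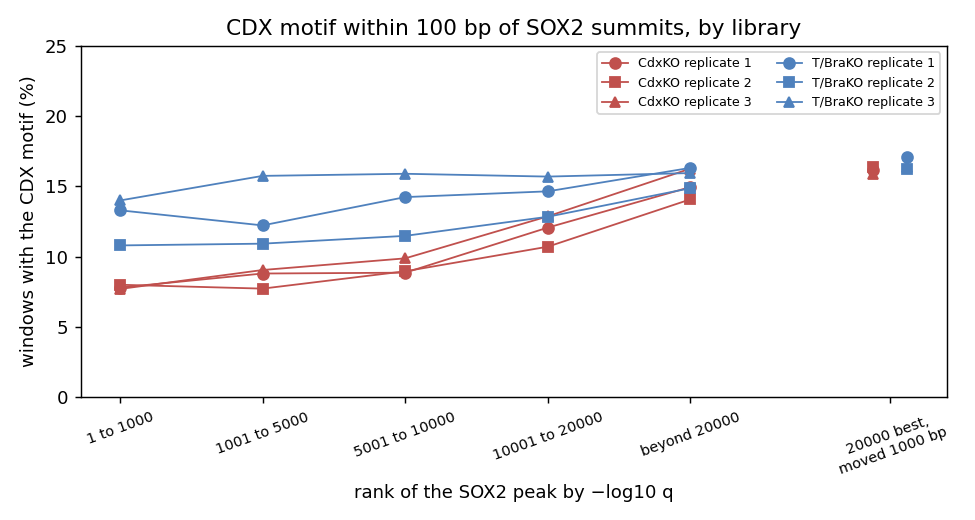
Percentage of SOX2 summits with the CDX motif within 100 bp (vertical axis) by rank of the peak, 1 line per library, with the 20000 best windows moved by 1000 bp at the right. CdxKO libraries start near 7.8% and T/BraKO libraries at 10.8% to 14%, and the lines meet at 14.1% to 16.3% beyond rank 20000.

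The T/BraKO-only regions with the best ranks were strong sites. The leading one lay in an intron of Rbfox3, a neuronal splicing regulator, at chr11:118695047-118695620. It had ranks of 49, 210 and 56 in the T/BraKO lists, with fold enrichments of 51.8, 29.3 and 34.3, and was in 2 full CdxKO lists but not among their best peaks. The next lay 246573 bp upstream of Irx1, a homeobox gene, at chr13:72210067-72210530, with fold enrichments of 19.7, 32.6 and 23.0, and was in no full CdxKO list. Both windows held a CDX and a SOX motif, and both regions were among the best peaks of all 3 wild-type (WT) SOX2 libraries with CHIR. The Irx1 region was in none of the 3 WT libraries without CHIR (noCHIR), even over their full lists. The other 6 of the 8 leading T/BraKO-only regions lay nearest the start sites of Mical1, Dut, Fank1, Ttc30a1, Pmp22 and Itga1, and those near Dut, Ttc30a1, Pmp22 and Itga1 were also in no full CdxKO list. Of the 8, all but those near Mical1 and Itga1 had a CDX motif.

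The leading CdxKO-only regions were weaker. The first lay in an intron of Appl1, an endosomal adaptor, at chr14:26956177-26957330, with ranks of 1625, 1239 and 206 in the CdxKO lists, fold enrichments of 15.8, 18.1 and 39.6, and a place in 2 full T/BraKO lists. Replicate 3 gave the highest value. Further leaders lay nearest Htr2a, Stim2, Dmtf1, Trim33, Adgrl2 and Stard13, those near Dmtf1, Trim33 and Stard13 being in no full T/BraKO list, and another region of that kind lay in Zfp709. Of the 8 leaders the Dmtf1 region alone had a CDX motif, and it was also the only one among the best peaks of all 3 noCHIR libraries.

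Separating regions fell in the Hox clusters, the homeobox genes that encode position along the body axis. All 39 protein-coding Hox genes were examined with 10000 bp on either side, and 4 T/BraKO-only regions and 1 CdxKO-only region lay there. Because neighbouring genes share such windows, 8 of the 39 genes had a T/BraKO-only region and 2 a CdxKO-only region, against 185 (0.844%) and 219 (0.999%) of all 21911 protein-coding genes. That background is not matched for peak density, as 59.0% of Hox genes had a peak in all 6 libraries, against 17.0% of all genes. At gene level no Hox gene was without a peak in one mutant and listed in every library of the other. All 4 T/BraKO-only regions had a CDX motif. The region in the intron of Hoxa4 (chr6:52190766-52191118, sequence above) had fold enrichments of 10.8, 8.42 and 15.6 in T/BraKO and was in no full CdxKO list. A region in a coding exon of Hoxb9 (chr11:96271854-96272329) had 14.5, 11.1 and 12.3, with lower-ranked peaks in 2 full CdxKO lists. A region 1691 bp upstream of Hoxb4 (chr11:96316325-96317231) had 7.34, 8.67 and 10.3, and a region 1513 bp upstream of Hoxc6 (chr15:103007844-103008417) had 11.5, 13.4 and 6.93, each with a peak in 1 full CdxKO list. None of the 4 was among the best peaks of any WT noCHIR library, whereas the Hoxa4 and Hoxb9 regions were in all 3 WT CHIR libraries, the Hoxb4 region in 2 and the Hoxc6 region in 1. The CdxKO-only region lay at the other end of its cluster, 1394 bp upstream of Hoxb2 (chr11:96349829-96350529), with 6.05, 9.55 and 7.81 and no CDX motif, and 2 full T/BraKO lists held a peak there.

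Few other developmental genes had a separating region nearby. Mesp1, a regulator of early mesoderm, had a CdxKO-only region 4298 bp from its start (chr7:79789292-79789658, fold enrichments of 11.8, 7.24 and 9.95) that was in no full T/BraKO list and had a CDX motif, and Nkd1, a WNT feedback inhibitor, had one 8880 bp upstream. T/BraKO-only regions lay near Tdgf1, a Nodal co-receptor, Utf1 and Zic2 of the pluripotency and epiblast list, and Pax3, a neural tube regulator, where the region was in no full CdxKO list. Of these 4 T/BraKO-only regions that near Zic2 alone had a CDX motif. None of the 20 caudal epiblast genes, T and the 3 Cdx genes among them, had a separating region, which at the shares of all genes given above is no result about the list. Over whole genes, 135 of 21911 protein-coding genes (0.616%) had a best peak within 10000 bp in every CdxKO and no T/BraKO library and 106 (0.484%) in every T/BraKO and no CdxKO library. None of the genes of the 7 developmental lists was among them. A peak in all 6 libraries was found at 17 of 20 caudal epiblast genes and at 23 of 39 Hox genes, against 3717 of 21911 protein-coding genes (17.0%).

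Some of the CdxKO-only regions were related in sequence to each other. Local alignment of these summit windows with each other linked 28 of 289 (9.69%, 6.79 to 13.6) into one group of related sequences. A second group had 20, and 61 windows in 6 groups were related to another (21.1%). Among the 262 T/BraKO-only windows 21 were related to another (8.02%), also in 6 groups, the largest of 5. The window of Appl1 shown above belongs to the group of 28. Further members lay nearest Htr2a, Trim33 and Zfp709, named above. Of the 28 summits 25 lay in sequence that the reference marks as repeated or of low complexity, although the Appl1 summit did not, and over all CdxKO-only regions this share was 29.8% (24.8 to 35.3), against 17.2% (13.1 to 22.2) in T/BraKO-only and 18.9% in common regions. The string GTGTGAA is contained in the extended T-box site but is shorter than the T-box motif searched above. It lay in 32 of 289 CdxKO-only windows (11.1%), and 22 of these 32 belonged to the 28 related windows. Its share was 1.91% in T/BraKO-only, 3.26% in common and 3.37% in all regions. Among the 7-letter strings compared below it ranked 6th towards CdxKO. The part of repeated sequence in the result was not tested.

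Among all 70228 regions 321 (0.457%) aligned with the group, and none of them was T/BraKO-only (0 of 262, an upper Wilson bound of 1.45%), whereas 18 were in all 6 lists. CdxKO libraries listed 165, 151 and 214 of the 321 among their best peaks and T/BraKO libraries 54, 60 and 88. The ranges did not overlap, but the group was found from CdxKO-only regions, so these values are no independent evidence. WT CHIR libraries listed 37, 68 and 140, and WT noCHIR libraries 105, 74 and 93. Libraries of other factors had no part in the choice, but they came from the same cell lines, and the input that served each was not stated. A background common to the antibodies at these sequences was not tested. Among these libraries β-catenin was listed at 231, 241 and 227 of the 321 in CdxKO and at 132, 112 and 134 in T/BraKO. LEF1 was listed at 108, 111 and 95 against 13, 27 and 16. No test was made, because the group was chosen after its values were seen.

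**Figure D3:**
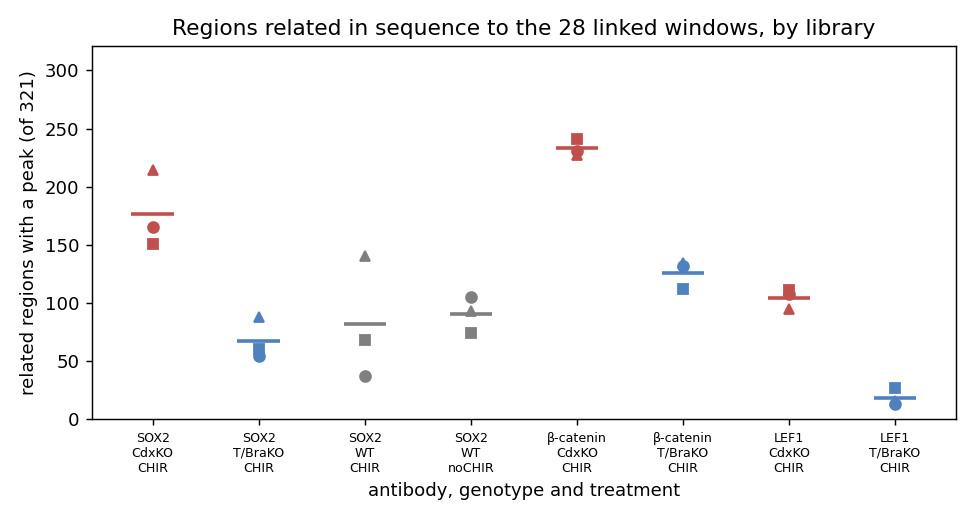
Number of the 321 regions related in sequence to the 28 linked CdxKO-only windows that hold one of the 20000 best peaks of a library (vertical axis), by antibody, genotype and treatment, with points for libraries and bars for means. CdxKO libraries of all 3 antibodies lie above the T/BraKO libraries of the same antibody, for example 227 to 241 against 112 to 134 for β-catenin.

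Strings of 7 letters were then compared between the classes without reference to known motifs, as a description. Of the strings compared, CATAAAA differed most towards T/BraKO, in 42 T/BraKO-only and 7 CdxKO-only windows (16% and 2.42%), followed by CCATAAA (37 and 2) and CAATAAA (40 and 8), both of them forms of the CDX motif. Towards CdxKO it was TGTGAAA, in 40 CdxKO-only and 8 T/BraKO-only windows (13.8% and 3.05%), and GCAGAAC, in 33 and 3. Both strings occur in the Appl1 window shown above, which belongs to the related group. Related windows were counted separately here, so these counts are not of independent sequences.

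β-catenin and LEF1 libraries from the same mutants, which had not been used to choose the regions, moved with SOX2. At CdxKO-only regions β-catenin was listed at 42.9%, 46.0% and 38.8% in CdxKO and at 31.8%, 27.3% and 28.7% in T/BraKO, a difference of 13.3 points. At T/BraKO-only regions it was listed at 16.4%, 18.3% and 16.4% in CdxKO and at 61.1%, 50.4% and 55.3% in T/BraKO, a difference of −38.5 points. LEF1 was listed at 21.8%, 19.4% and 18% of CdxKO-only regions in CdxKO against 5.19%, 3.46% and 5.54% in T/BraKO, and at 5.34%, 3.82% and 5.34% of T/BraKO-only regions against 9.16%, 13.4% and 9.16%. The libraries of the mutants were fully apart in all 4 comparisons (exact permutation tests, two-sided, p = 0.1 each, the smallest possible, and adjusted p = 0.1 over the 4). At the 3561 common regions β-catenin was listed at 54.9 ± 7.60% in CdxKO and 63.8 ± 4.46% in T/BraKO, which overlapped (exact permutation test, p = 0.2, n = 3), and LEF1 at 21.9 ± 1.40% and 18.2 ± 2.65% (p = 0.1, n = 3), in the opposite direction from T/BraKO-only regions. The SOX2, β-catenin and LEF1 libraries of a genotype come from the same cell line, so line and genotype cannot be told apart there either. On leaving out each library in turn, with the regions found anew, the β-catenin differences were 5.62 to 12.7 points at CdxKO-only and −32.2 to −22.8 at T/BraKO-only regions, and those of LEF1 8.20 to 14.2 and −3.72 to −2.16. Over the full lists 3 of the 4 comparisons overlapped: β-catenin at CdxKO-only regions differed by 7.46 points (exact permutation test, p = 0.2), LEF1 at CdxKO-only regions by 8.94 (p = 0.3) and LEF1 at T/BraKO-only regions by −10.6 (p = 0.2), while β-catenin at T/BraKO-only regions differed by −38.6 (p = 0.1).

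**Figure D4:**
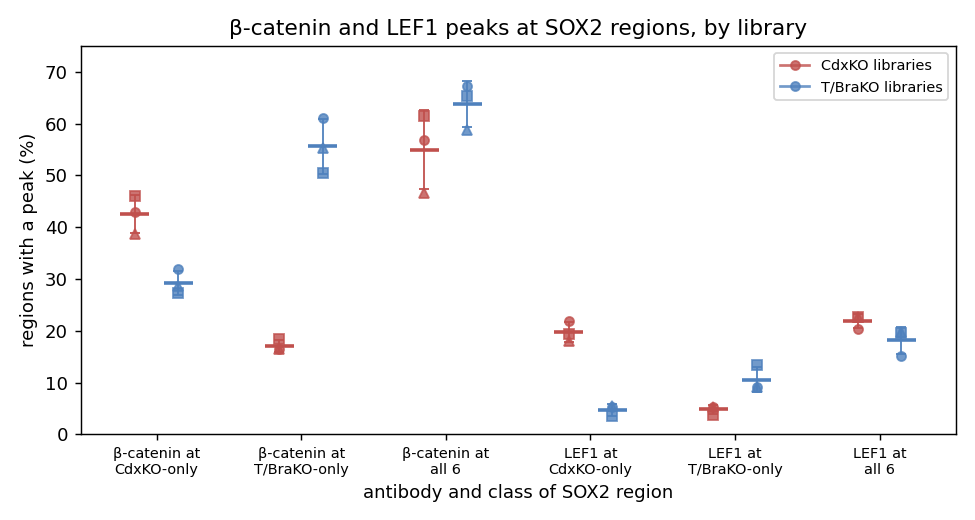
Percentage of CdxKO-only, T/BraKO-only and common SOX2 regions that hold a β-catenin or LEF1 peak (vertical axis), with points for the 3 libraries of each mutant, horizontal bars for means and vertical bars for the SD. At T/BraKO-only regions β-catenin stands at 50.4% to 61.1% in T/BraKO and at 16.4% to 18.3% in CdxKO, and at common regions the groups overlap for β-catenin but not for LEF1.

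Sequence and β-catenin varied together within the classes. T/BraKO-only regions with a CDX motif held β-catenin at 66.1 ± 8.83% in T/BraKO and 11.8 ± 5.68% in CdxKO (SD, n = 3), and those without the motif at 48.0 ± 3.42% and 20.8 ± 2.31%. The 28 related CdxKO-only windows held β-catenin in all 28 cases in each CdxKO library and in 50 ± 10.7% of cases in T/BraKO, and LEF1 at 67.9 ± 7.14% and 3.57 ± 3.57%. The other 261 CdxKO-only regions held β-catenin at 36.4 ± 4.04% and 27.1 ± 2.46%.

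WT libraries placed the separating regions against cells that carry both the Cdx genes and T. The paper reports that CHIR induces T and Cdx expression, so noCHIR cells carry these genes without that induction. Neither factor was measured here. Of the T/BraKO-only regions 7.63% were among the best peaks of all 3 WT CHIR libraries and 32.1% were in none, while 11.5% were in all 3 noCHIR libraries and 51.5% in none. Those with a CDX motif were listed at 35.5%, 22.7% and 78.2% in WT CHIR replicates 1 to 3 and at 13.6%, 20.9% and 19.1% in noCHIR. Those without the motif were listed at 18.4%, 12.5% and 48.7% in WT CHIR and at 42.8%, 42.1% and 30.9% in noCHIR. WT CHIR replicate 3 was the highest of its group in both classes. Of the CdxKO-only regions 3.81% were in all 3 WT CHIR libraries and 46.4% in none, and 19% were in all 3 noCHIR libraries and 41.9% in none. Of the common regions 78.7% were in all 3 noCHIR and 43.2% in all 3 WT CHIR libraries. Over all 70228 regions 2.77% were in all 3 WT CHIR libraries and 79.7% in none. For the noCHIR libraries these shares were 10.5% and 72.6%.

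Sites called in every library also differed in strength, but few passed a test. Fold enrichment was compared at the 7338 regions that were in all 6 full lists, on a log2 scale centred on each library's median. Being tested thus required a peak in the short list of T/BraKO replicate 3 (26940 peaks), so sites weak in T/BraKO were more easily left out. The part of this filter in the counts per direction was not tested. By limma with Benjamini-Hochberg adjustment 3 regions (0.0409%) were higher in CdxKO and 10 (0.136%) higher in T/BraKO at an adjusted p of 0.05, and at an unadjusted p of 0.05 the numbers were 225 and 334. Without centring the split was 3 and 4 at the adjusted threshold and turned to 364 and 203 at the unadjusted p, as the medians of the lists differed by 0.12 on the log2 scale. Leaving out any library left 0 to 2 and 1 to 7. Of the 10 regions higher in T/BraKO 7 had a CDX motif and of the 3 higher in CdxKO none had, against 9.72% of all regions tested.

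The largest difference was near Gtf3a, the gene of an RNA polymerase III factor, 28461 bp upstream (chr5:146919961-146920769), with fold enrichments of 4.79, 6.31 and 5.51 in CdxKO and 27.6, 38.5 and 49.1 in T/BraKO. The log2 difference was −2.89 (SE 0.396, adjusted p = 3.91e-05 by limma), and it passed in every alternative in which the region was tested. Cdx2, which CdxKO cells lack, lies on the same chromosome, at chr5:147290805-147317270 with 10000 bp on either side. The part of the Cdx2 deletion in this difference was not tested. A region 324243 bp upstream of Mc2r (chr18:68753199-68753875) had 35.7, 23.9 and 75.9 in CdxKO and 3.94, 5.20 and 11.5 in T/BraKO, a log2 difference of 2.58 (SE 0.447, adjusted p = 0.00303 by limma), with a limma-adjusted p of 0.102 without CdxKO replicate 3. In an intron of Fmn1, a regulator of actin filaments, CdxKO libraries had 16.9, 31.4 and 19.7 and T/BraKO libraries 73.8, 71.4 and 95.1, a log2 difference of −1.98 (SE 0.354, adjusted p = 0.00350 by limma), with a limma-adjusted p of 0.0602 without CdxKO replicate 1. The groups did not overlap at any of the 13 regions.

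The other regions higher in T/BraKO among the leading 6 were near Akr1d1, Mfap1b, Sae1 and Zfp618, with log2 differences of −1.87, −2.08, −1.86 and −1.85 and limma-adjusted p-values of 0.0146 to 0.0165. The other regions higher in CdxKO were near Zbtb16, a zinc-finger repressor gene, and Terf1, a telomere-binding protein gene, with 1.80 and 1.95 and a limma-adjusted p of 0.0426 each. These 6 calls were the less stable: each was lost without at least 4 of the 6 libraries in turn, with limma-adjusted p-values of up to 0.372 for Terf1, 0.261 for Zbtb16 and 0.177 for Mfap1b. None of the 13 lay within 10000 bp of a gene of the developmental lists. Over the 713 tested regions with a CDX motif the median difference was −0.19 on the log2 scale, against −0.01 over all 7338, and 37.0% were higher in CdxKO against 49.2% of all. The centred medians of these 713 regions were −0.14, −0.14 and −0.10 in the CdxKO libraries and 0.10, −0.03 and 0.12 in the T/BraKO libraries.

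**Figure D5:**
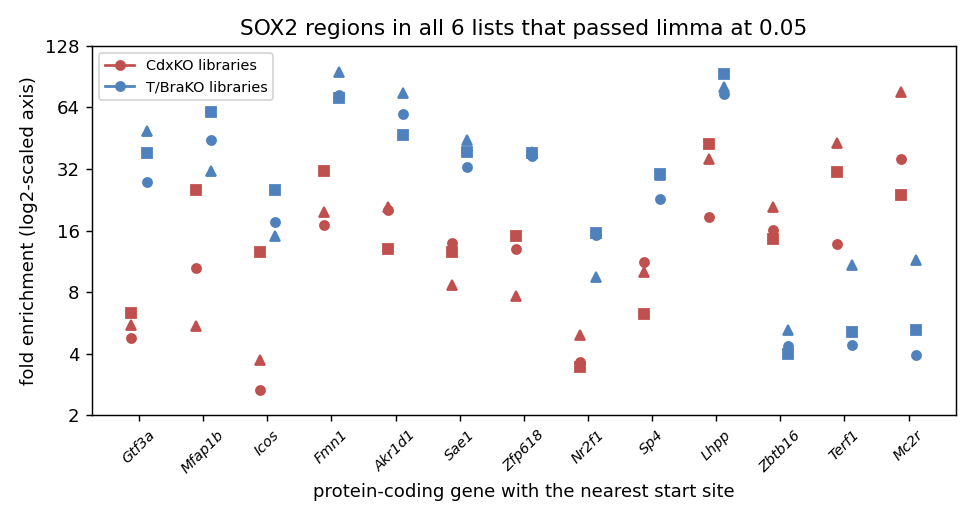
Fold enrichment of SOX2 in each library (vertical axis, log2-scaled) at the 13 regions of all 6 full lists that passed limma, named by the protein-coding gene with the nearest start site, with red points for CdxKO and blue points for T/BraKO. The 10 regions from Gtf3a to Lhpp are higher in T/BraKO and the 3 from Zbtb16 to Mc2r are higher in CdxKO, without overlap between the mutants.

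The chromosomes of the best peaks differed slightly between the lines. The share of the 20000 best peaks on chromosome 3 was 6.12 ± 0.141% in CdxKO and 5.70 ± 0.145% in T/BraKO, and on chromosome 19 it was 2.40 ± 0.146% and 2.71 ± 0.110% (SD, n = 3). The groups did not overlap on 10 of 21 chromosomes, with ratios of means of 0.886 to 1.07 on 9 of them and of 0.333 on Y, where the shares were 0.0217 ± 0.00289% and 0.065 ± 0.01%. The ratio on Y rests on few peaks per list. On chromosome 3 lay 32 of the 289 CdxKO-only and 14 of the 262 T/BraKO-only regions, against 212 of the 3561 common regions. Counts also differed on other chromosomes, for example 17 and 7 on chromosome 8 and 3 and 11 on X. Over the full lists the groups were apart on 3 chromosomes (5, 8 and Y) and overlapped on chromosomes 3 (5.83% and 5.71%) and 19 (2.50% and 2.62%). Copy number was not measured, so a difference in chromosome content between the lines and a difference in binding cannot be told apart.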

How the data were processed

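SOX2 ChIP–seq lists of CdxKO and T/BraKO cells with CHIR (3 libraries each) were analysed, with SOX2 lists of WT CHIR and noCHIR cells and β-catenin and LEF1 lists of both mutants at the regions found, 24 lists in all. The members, motifs and gene lists were chosen with earlier results of these data known. Per the labels and the study's methods, the authors aligned single-end reads to mm10 with BWA in the nf-core chipseq pipeline, filtered them with SAMtools, BAMTools and picard, and called narrow peaks with MACS2 at its default q, 1 list per library. Neither the MACS2 version nor the input that served as control for each library was stated. Fold enrichment at the summit over local background is the ratio that the authors deposited. The deposited −log10 p and −log10 q belong to the same summit, and the deposited summit offset gave the window centre. Reads were not counted, so the depth is unknown, and precision rests on the number of libraries. The labels call the replicates biological, and the study's methods state that the triplicates came from separate experiments. The p-values measure only the spread between these libraries.

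Peaks of chromosomes 1 to 19, X and Y were ranked by −log10 q, −log10 p, fold and position. The 20000 best of each list, or the full lists, were merged at an overlap of at least 1 bp. Motifs were searched within 100 bp of the summit in GRCm38.p6, with GENCODE M21 genes. Group values were compared by exact permutation over 20 assignments (two-sided), and shared regions with limma 3.58.1 (trend) in R 4.3.3 on log2 fold enrichment, without a pseudocount. Benjamini-Hochberg adjustment covered 6 motifs, 4 factor tests or all regions, and the threshold was 0.05. Related windows were linked by blastn 2.17.0 alignments of at least 50 bits and 60 bp. Named regions were the 8 best-ranked separating regions per mutant, the 5 best absent from the other mutant's full lists, up to 6 passing limma per direction, the loci of the deleted genes, and the listed genes with a separating region. One region that this rule names is not reported here. The sequence of Hoxa4, the string GTGTGAA, the related group and the 7-letter strings were chosen after values were seen. The statistics were tested on simulated data. Input samples and the WT lists of β-catenin and LEF1 were not used here. Alternatives were other list lengths, ranking, windows, overlap rules and scaling, a replicate block, and leaving out each library.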

Additional observations from a re-analysis of the deposited data

How the results depend on the processing

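The CDX motif share stayed lower in CdxKO under every setting run, with differences of −4.49 to −2.66 points on leaving out a library, but over the full lists it was −1.04 points, with overlapping groups (exact permutation test, p = 0.3). The T-box difference kept its sign. Other differences in which the groups overlapped changed sign under some settings. Over the full lists they were −1.55 points for SOX, −0.718 for TCF/LEF, −0.567 for POU, −0.562 for SOX-POU, −0.829 for promoters and −0.636 for GC, and the overlap excess was −0.00194. The POU difference was −0.0267 with the 5000 best peaks and −0.015 with ranking by fold enrichment. On leaving out a library the differences ranged from −0.0934 (without T/BraKO replicate 3) to 0.405 for log10 list length, −0.37 to 0.833 for TCF/LEF, −0.285 to 0.303 for POU and −0.156 to 0.519 for SOX-POU, and the overlap excess from −0.00177 to 0.0231. The cause was not tested. CdxKO-only regions numbered 113 among the 5000 best peaks and 1234 in the full lists, and T/BraKO-only regions 127 and 439. Leaving out a library relaxes the rule, and gave 361 to 883 and 365 to 892.

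Regions of differing strength by limma numbered 3 and 4 (CdxKO higher, T/BraKO higher) without centring, 0 and 6 with the 20000 best peaks only, where fewer regions were tested, and 0 to 2 and 1 to 7 on leaving out a library. With the replicate number as a block they were 6 and 20. Deviations of samples with the same number correlated at 0.0242, 0.0956 and 0.168, against −0.123 to 0.0364 for samples with different numbers. Whether the numbers mark a pairing was not tested, and the main comparisons left the samples unpaired. The blocked sign test of the CDX share gave p = 0.25 (exact, the smallest possible). Of 90 refits of the 9 named regions 31 no longer passed. Peak lists hold no reads, so absence of a peak is absence at the threshold of that list.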
